A study of Homo sapiens with 4 samples.

Results

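In ES2 cells treated with Liq, *SFRP1* and *DKK1*, which encode secreted Wnt antagonists, the ligand gene *WNT5B* and the feedback target *AXIN2* were upregulated by 1.362-fold to 1.550-fold, while 5 other Wnt genes described here did not pass the test and *WNT5A* was too low to be tested. The genes described here are 10 of the 23228 genes listed in the count tables. They were taken by symbol and comprise the ligands *WNT5A* and *WNT5B*, the receptors *FZD8* and *LGR5*, the antagonists *DKK1*, *DKK3* and *SFRP1*, and the target and nuclear factor genes *AXIN2*, *LEF1* and *TCF7*. The ES2 line was derived from a human ovarian cancer, and the study uses it as a cisplatin-resistant model. Liquiritigenin (Liq) is a plant flavanone used in the study as an agonist of estrogen receptor beta (ERβ). The study asked which genes respond to this agonist. Cells in phenol red-free RPMI-1640 with 5% charcoal-stripped serum received vehicle or 100 μM Liq for 24 h, and RNA from 2 samples per group was sequenced. The dose comes from the study's methods, and the solvent of the vehicle is not named in the sources used here. Nothing in the sources says whether the 2 samples of a group came from separate cultures, so p-values measure the spread between these samples, which may be technical.

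Wnt ligands are secreted lipid-modified glycoproteins that bind Frizzled receptors together with a co-receptor. In the canonical branch, binding to Frizzled and LRP5 or LRP6 stops the APC and AXIN complex from marking β-catenin for destruction, and β-catenin then activates genes bound by the TCF and LEF factors. AXIN2, LEF1, TCF7 and LGR5 are themselves products of such target genes in many tissues. SFRP proteins bind Wnt ligands outside the cell and DKK1 blocks LRP5 and LRP6, whereas WNT5A and WNT5B act mainly through β-catenin-independent branches that steer cell polarity, movement and calcium signals.

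Reads counted on genes numbered 34573053 to 48933893 per library, so that 3 counts corresponded to 0.0613 to 0.0868 in counts-per-million units (CPM, here scaled by TMM library factors). The 10 most abundant genes took 5.87% to 6.0% of the counts in the vehicle libraries and 4.17% to 4.35% in the Liq libraries. Among marker genes of the line, the mesenchymal gene *VIM* averaged 7480 CPM with vehicle and 6180 CPM with Liq (edgeR adjusted p = 0.0003409). Of the other mesenchymal genes, *FN1* averaged 7730 and 6950 CPM (0.02367) and *CDH2* 115 and 134 CPM (0.02645, both edgeR adjusted p). Of the epithelial keratin genes, *KRT7* averaged 252 and 357 CPM (1.081e-05), *KRT18* 198 and 167 CPM (0.01322) and *KRT8* 23.8 and 26.1 CPM (0.3181, all edgeR adjusted p). The epithelial genes *KRT19*, *EPCAM* and *CDH1* had 0 to 3 counts in each library. Of the ovarian markers, *PAX8* had 49 and 46 counts with vehicle and 12 and 29 with Liq (log2 fold change -1.34, edgeR adjusted p = 0.002137), *WT1* had a log2 fold change of -0.68 (0.002849), and *MUC16* had 0 to 1 count. The part of these marker changes in the results was not tested. The leukocyte markers *PTPRC*, *CD3E* and *CD14* had 0 to 11 counts, and of the endothelial markers *PECAM1* had 2 to 10 counts while *CDH5* averaged 51.8 CPM in vehicle and 46.4 CPM with Liq. *ESR2*, which encodes ERβ, had 4 and 7 counts in vehicle and 5 and 14 in Liq. RNA was taken from whole cultures, in which fewer expressing cells and less RNA per cell cannot be told apart.

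The 10 genes ranged from near the floor to among the most abundant transcripts. Divided by the length of the canonical transcript of the GENCODE annotation in kilobases (RPKM, CPM per kilobase, vehicle means), *DKK1* was highest at 217, followed by *SFRP1* at 194, *DKK3* at 181, *LEF1* at 6.09, *WNT5B* at 5.97, *FZD8* at 3.18, *TCF7* at 2.38, *LGR5* at 1.99, *AXIN2* at 0.737 and *WNT5A* at 0.0312. The vehicle replicates of *LEF1* (6.10 and 6.07) lay within the range of those of *WNT5B* (5.75 and 6.19), so these neighbours did not differ beyond their spread. The order depended on the length used. Over all annotated exons *SFRP1* was first at 183, *DKK1* had 177 and *DKK3* 38.3, while *FZD8* at 3.18 passed *WNT5B* at 3.15 and *TCF7* at 0.775 came below *LGR5* at 1.75. In vehicle CPM, *SFRP1* ranked 104th of the 23228 genes listed.

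**Figure D1:**
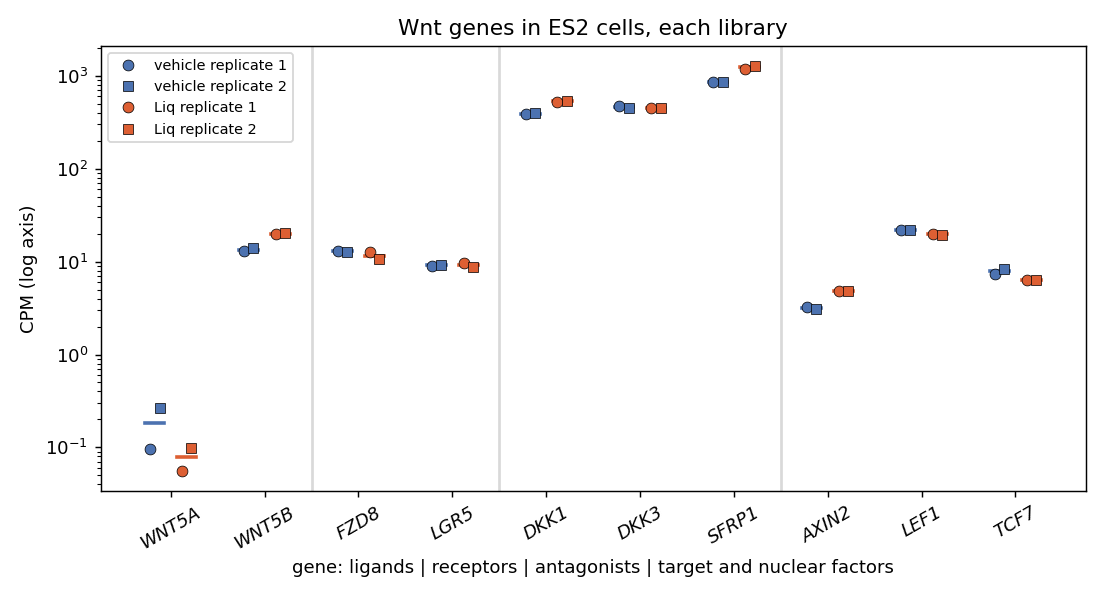
CPM of each of the 10 Wnt genes (log axis) in the 2 vehicle libraries (blue) and the 2 Liq libraries (orange), with group means as bars and replicates 1 and 2 as circles and squares. The Liq points of *WNT5B*, *DKK1*, *SFRP1* and *AXIN2* lie above both vehicle points, and *WNT5A* lies near the floor in all 4 libraries.

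Of the 10 genes, 9 passed the filter on low counts and were tested, and *WNT5A* was not. By edgeR's quasi-likelihood test with Benjamini-Hochberg adjustment over all 13546 tested genes, 4 of the 9 rose (adjusted p under 0.05) and 0 fell. At the same threshold 24.0% of all tested genes passed, with 12.6% higher and 11.3% lower with Liq. With the added requirement of at least 1.5-fold, 1 of the 9 rose and 0 fell, against 6.45% of all tested genes, 4.29% upward (581 genes) and 2.16% downward (293 genes). With loess offsets, a scaling that varies with expression, that split was 357 upward and 386 downward. For the 9 genes the median of the log2 fold changes was -0.0030, and for all tested genes it was 0.006. The groups did not overlap in 7 of the 9, with Liq above in 4 and below in 3. Over all tested genes, 61.7% did not overlap, 31.5% with Liq above and 30.2% with Liq below, so such separation alone sets none of the 9 apart.

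**Figure D2:**
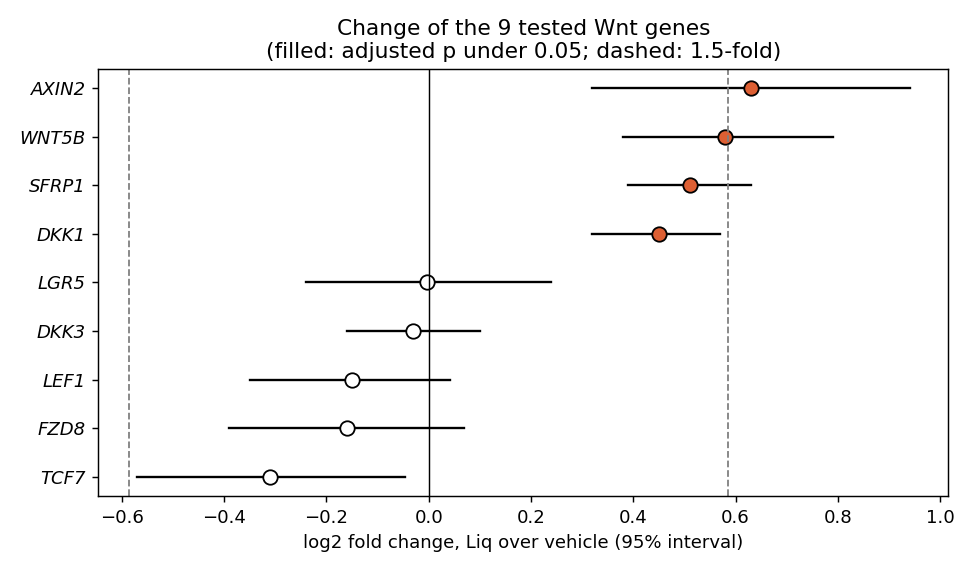
Log2 fold change of Liq over vehicle for the 9 tested Wnt genes, with 95% intervals from the edgeR fit. Filled points passed an adjusted p of 0.05 and dashed lines mark 1.5-fold. *AXIN2*, *WNT5B*, *SFRP1* and *DKK1* lie between 0.45 and 0.63, and the intervals of *LGR5*, *DKK3*, *LEF1* and *FZD8* include 0.

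Of the ligand genes, *WNT5B* was upregulated, and it was the only WNT gene above 10 CPM in these cells. It lies on chromosome 12 from 1639057 to 1756378 (GRCh37, plus strand). *WNT5B* was measured at 12.9 and 13.9 CPM in the vehicle libraries and at 19.8 and 20.2 CPM in the Liq libraries. Both Liq values were above both vehicle values by more than the replicates differed. On the log2 scale the change was 0.58 ± 0.10 (SE, n = 2 per group), with an edgeR adjusted p of 0.0001133. This is 1.497-fold, just under the fold threshold. It reached 1.5-fold in 4 of 11 alternative fits, 2 of which left out a library (1.553-fold without vehicle replicate 2 and 1.509-fold without Liq replicate 1). *FBXL14*, on the opposite strand over 28589 bases of the same locus, had a log2 fold change of -0.19 (adjusted p = 0.2164 from edgeR). The strand setting of the counting is not given in the sources used here.

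*WNT5A*, the closest relative of *WNT5B* (chromosome 3 from 55499743 to 55524567, GRCh37), was barely detectable. It had 4 and 10 counts in vehicle and 2 and 5 in Liq, at 0.0562 to 0.267 CPM. The groups overlapped, and no difference was detectable at this depth. In the 4 alternative fits that kept it, its adjusted p was 0.2766 to 0.5455 (edgeR). Of the 19 WNT genes, 10 had at least 1 count in any library and 4 could be tested. *WNT3*, a canonical ligand and the second most abundant of them, averaged 2.16 ± 0.22 CPM with vehicle against 1.94 ± 0.0054 CPM with Liq (SD, n = 2), and its log2 fold change of -0.16 did not pass the test (adjusted p = 0.5987 from edgeR).

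The secreted antagonist genes *SFRP1* and *DKK1* were upregulated, and *DKK3* did not pass the test. *SFRP1*, which encodes a decoy that binds Wnt ligands, lies on chromosome 8 from 41119481 to 41166992 (GRCh37). Its level was 867 and 866 CPM in vehicle against 1198 and 1270 CPM with Liq. The gap between the groups was far wider than that between replicates, with a change of 0.51 ± 0.059 on the log2 scale (SE, edgeR adjusted p = 3.757e-07). *DKK1*, whose product is a LRP5 and LRP6 antagonist and whose gene is itself a β-catenin target in several tissues, lies on chromosome 10 from 54074041 to 54077802. *DKK1* was at 391 and 393 CPM in vehicle against 528 and 540 CPM with Liq, again without overlap, and changed by 0.45 ± 0.063 on the log2 scale (SE, edgeR adjusted p = 8.164e-06). The 95% interval of the fold ran from 1.245 to 1.490 for *DKK1* and from 1.309 to 1.550 for *SFRP1*. *DKK3* (chromosome 11 from 11977754 to 12031316), a divergent family member that does not act as a classical LRP antagonist, was at 471 and 445 CPM in vehicle against 450 and 447 CPM with Liq. Its groups overlapped (adjusted p = 0.7692 from edgeR), and the 95% interval of its fold, 0.894 to 1.072, ended below the lower bounds of *DKK1* and *SFRP1*.

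Among the target and nuclear factor genes, only *AXIN2* passed the test. AXIN2 is a scaffold of the β-catenin destruction complex and its transcript is a widely used readout of canonical Wnt signaling. The gene lies on chromosome 17 from 63524681 to 63557766 (GRCh37). It had 132 and 115 counts in vehicle and 173 and 245 in Liq, or 3.21 and 3.07 CPM against 4.86 and 4.88 CPM. The Liq libraries were clearly above the vehicle libraries, by 0.63 ± 0.15 on the log2 scale (SE, edgeR adjusted p = 0.003123), or 1.550-fold. The annotation also places an unnamed protein-coding gene on the same strand over 23547 bases of this locus. *AXIN2* was thus the 1 gene of the 9 past both thresholds. When the tested genes were split by mean CPM into 3 bins of equal size, *AXIN2* was in the lowest bin, where 11.0% of all genes rose by at least 1.5-fold and 17.2% at any fold. The middle bin, with *WNT5B*, had 1.17% and 12.4%, and the highest bin, with *DKK1* and *SFRP1*, had 0.731% and 8.26%. With these loess offsets, *AXIN2* still passed the adjusted p (0.02224, edgeR) at 1.405-fold, below the fold threshold, and *SFRP1* moved above it to 1.533-fold.

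**Figure D3:**
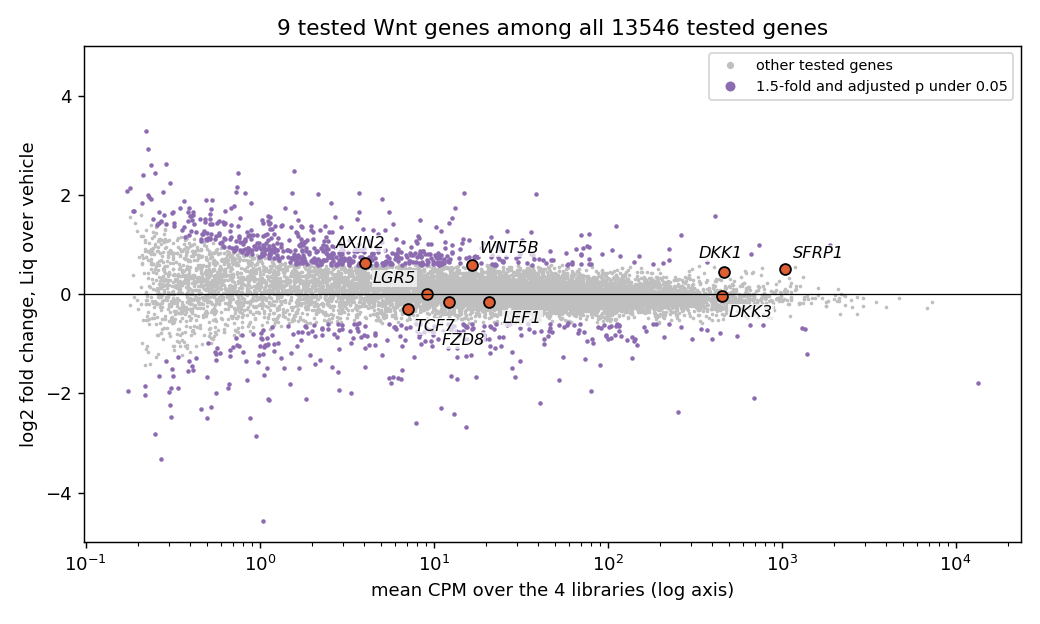
Log2 fold change against mean CPM (log axis) for all tested genes in grey, those past 1.5-fold and an adjusted p of 0.05 in violet, and the 9 tested Wnt genes in orange. Violet points above 0 crowd at low CPM, where *AXIN2* lies, while *DKK1* and *SFRP1* lie among the abundant genes, where 0.731% rose by at least 1.5-fold.

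*LEF1* and *TCF7*, which encode DNA-binding partners of β-catenin, were lower with Liq in every library but did not pass the test. *LEF1* (chromosome 4 from 108968701 to 109090112) was at 21.8 and 21.7 CPM in vehicle against 20.0 and 19.1 CPM with Liq, with a log2 fold change of -0.15 (adjusted p = 0.2512 from edgeR). *TCF7* (chromosome 5 from 133450372 to 133487556) was at 7.35 and 8.31 CPM in vehicle against 6.33 and 6.32 CPM with Liq. Each Liq value was below each vehicle value for both genes. The log2 fold change of *TCF7* was -0.31 (SE 0.13), with an unadjusted p of 0.02231 and an adjusted p of 0.07842 (edgeR), and with loess offsets it passed (-0.40, edgeR adjusted p = 0.02432). The counts are per gene, so the long and the inhibitory short isoforms of *LEF1* and *TCF7* are not separated.

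Neither receptor gene passed the test. *LGR5*, a receptor for R-spondins and a stem cell marker in the intestine (chromosome 12 from 71833578 to 71980090), was at 9.0 and 9.27 CPM in vehicle against 9.62 and 8.67 CPM with Liq. Its groups overlapped, and the 95% interval of its fold was 0.846 to 1.177. *FZD8* (chromosome 10 from 35927175 to 35931224), a Frizzled receptor gene, was at 13.1 and 12.6 CPM in vehicle against 12.6 and 10.6 CPM with Liq. The Liq values were lower, but the closest pair differed by less than the rounding, and its log2 fold change of -0.16 did not pass (SE 0.11, edgeR adjusted p = 0.3172).

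Promoter windows of 300 bases, from 250 before to 50 after the annotated start, were taken from RefSeq (GRCh38.p14) for 6 of the 10 genes, in 9 windows. No window was used here for *DKK3*, *AXIN2*, *SFRP1* and *LGR5*. Shown 5′ to 3′ are the windows of *DKK1* and *WNT5B*, the 2 upregulated genes with a window used here. That of *LEF1*, which did not pass the test, is shown beside them. Every CTTTG on either strand, the core of the TCF and LEF motif, is in capitals (coordinates in GRCh38.p14, not in the GRCh37 build of the gene positions above).
DKK1, chr10:52314031-52314330, plus strand: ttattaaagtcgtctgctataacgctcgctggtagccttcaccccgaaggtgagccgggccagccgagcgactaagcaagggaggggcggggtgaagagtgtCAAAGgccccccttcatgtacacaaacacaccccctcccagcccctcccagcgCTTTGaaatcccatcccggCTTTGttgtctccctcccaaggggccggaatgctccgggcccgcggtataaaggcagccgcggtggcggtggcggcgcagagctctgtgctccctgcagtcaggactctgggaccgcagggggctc
WNT5B window 1, chr12:1616806-1617105, plus strand: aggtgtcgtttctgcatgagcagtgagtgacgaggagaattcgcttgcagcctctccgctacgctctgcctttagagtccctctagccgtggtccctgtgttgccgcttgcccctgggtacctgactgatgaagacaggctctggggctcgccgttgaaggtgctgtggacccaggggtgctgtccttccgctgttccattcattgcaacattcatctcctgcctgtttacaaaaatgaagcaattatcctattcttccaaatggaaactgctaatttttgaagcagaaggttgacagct
WNT5B window 2, chr12:1628981-1629280, plus strand: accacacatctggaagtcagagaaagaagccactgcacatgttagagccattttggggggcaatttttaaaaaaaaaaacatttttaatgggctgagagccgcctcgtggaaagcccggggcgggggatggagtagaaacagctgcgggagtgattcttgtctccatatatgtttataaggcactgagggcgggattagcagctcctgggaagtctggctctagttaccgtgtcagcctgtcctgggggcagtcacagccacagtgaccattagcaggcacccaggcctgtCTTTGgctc
LEF1, chr4:108166252-108166551, minus strand: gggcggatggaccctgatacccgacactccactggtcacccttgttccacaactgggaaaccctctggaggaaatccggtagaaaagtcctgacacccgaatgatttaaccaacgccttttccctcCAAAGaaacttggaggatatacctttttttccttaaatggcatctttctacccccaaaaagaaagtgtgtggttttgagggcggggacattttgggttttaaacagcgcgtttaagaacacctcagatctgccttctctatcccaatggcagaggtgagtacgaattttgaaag
The *DKK1* window held 3 matches, whose leftmost bases are at -148, -95 and -76 from the start. The 2 *WNT5B* windows held 0 and 1, and the *LEF1* window held 1. Of the windows not shown, those of *TCF7* held 0 and 2, and those of *WNT5A* and *FZD8* each held 0. This core is common, with a match in 47.5% of all 35116 windows of this length. The longer TCF and LEF motif CTTTGAT (2.62% of all windows), the AP-1 motif TGANTCA (7.71%), the strict NF-κB motif (1.91%) and the palindromic estrogen response element (0.057%) were found in 0 of the 9 windows. A looser NF-κB motif, in 25.6% of all windows, was in windows of *TCF7*, *WNT5A* and *FZD8*, and the antioxidant response core, in 41.8%, was in windows of *TCF7*, *WNT5A*, *WNT5B* and *FZD8*. All motifs were searched on both strands, and a match is a description of the letters only.

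The rest of the Wnt pathway was examined through 9 lists of genes by role, which hold 117 genes beside the 10. Of these 67 were tested, 12 rose and 10 fell at an adjusted p under 0.05 (edgeR), beside 12.6% and 11.3% of all tested genes. By at least 1.5-fold 2 rose and 0 fell, or 2.99% of the 67, beside 6.45% of all tested genes. The median log2 fold change of the 67 was 0.070. The 22 genes past the adjusted p kept their sign in each of the 11 alternative fits, and 4 of them (*WLS*, *TPBG*, *CELSR2* and *CELSR3*) passed in all of these fits. These 22 are beside *SFRP1*, *DKK1*, *AXIN2* and *WNT5B*, which the counts for single lists include. Some genes stand in more than 1 list.

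Genes that act on the ligand itself or at the cell surface moved in both directions. Beside the counts of each list here, 12.6% of all tested genes rose and 11.3% fell (edgeR adjusted p under 0.05). *WLS*, the carrier that takes Wnt ligands to the plasma membrane, fell from 239 and 235 CPM to 180 and 178 CPM, a change of -0.40 ± 0.068 on the log2 scale (SE, edgeR adjusted p = 9.111e-05), while *PORCN*, which attaches their lipid, had one of 0.070 (adjusted p = 0.6672 from edgeR). Among 7 tested antagonists of 21, 2 rose, which were *SFRP1* and *DKK1*, and 2 fell, which were *TPBG* and *DKK2*. *TPBG*, an inhibitor of LRP6, fell from 82.1 and 80.7 CPM to 61.1 and 62.1 CPM, with a log2 fold change of -0.40 (adjusted p = 0.0003644 from edgeR). *DKK2* fell by 0.39 on the log2 scale (adjusted p = 0.01558 from edgeR), but it did not pass without vehicle replicate 1, vehicle replicate 2 or Liq replicate 1 (adjusted p = 0.05557 to 0.1254, edgeR), nor by the DESeq2 Wald test (0.06563). Of 8 tested Frizzled genes 2 rose, *FZD3* and *FZD5*, and 1 fell, *FZD4*, each of which passed in 6 or 7 of the 11 alternatives. The most abundant, *FZD6* at 129 ± 1.4 CPM and *FZD2* at 42.4 ± 3.3 CPM in vehicle (SD, n = 2), had log2 fold changes of -0.022 and 0.13, which did not pass. Of 7 tested co-receptor and LGR genes, *ROR1* and *PTK7* rose, each in 6 of the 11 alternatives, and 0 fell. *RYK* and *LRP6*, the most abundant of that list, had log2 fold changes of 0.037 and 0.10 and did not pass.

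**Figure D4:**
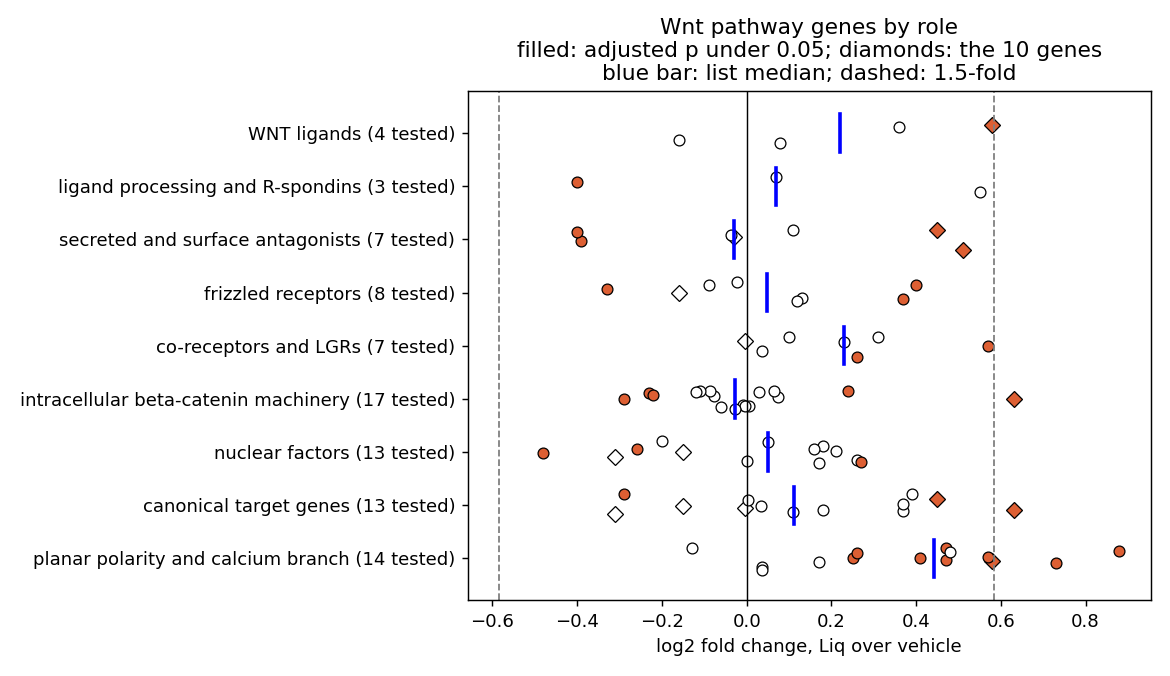
Log2 fold change of Liq over vehicle for the tested genes of 9 role lists, filled where the adjusted p was under 0.05, with diamonds for the 10 genes described above, a blue bar at each list's median and dashed lines at 1.5-fold. The list of the planar polarity and calcium branch has the highest median, 0.442, and the others lie between -0.031 and 0.230.

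Inside the cell, 5 genes of the β-catenin machinery and 3 nuclear factors passed, beside 24.0% of all tested genes. Of 17 tested genes of the β-catenin machinery 2 rose, *AXIN2* and *DVL2*, and 3 fell, *GSK3A*, *GSK3B* and *CSNK1E*, with a list median of -0.027. *DVL2* and *GSK3A* passed in 9 of the 11 alternatives and *GSK3B* and *CSNK1E* in 6, and none of these passed without vehicle replicate 1 (edgeR adjusted p = 0.09088 to 0.4243). *CTNNB1*, which encodes β-catenin, was at 416 and 386 CPM in vehicle against 367 and 372 CPM with Liq, and its log2 fold change of -0.12 did not pass the test (adjusted p = 0.2007 from edgeR), nor did that of the kinase gene *CSNK1D* (-0.11). Among 13 tested nuclear factors *CBY1* rose, and *TLE4* and *BCL9L* fell, while *TLE1*, a corepressor gene, had a log2 fold change of 0.17 and did not pass. *CBY1* and *BCL9L* passed in 8 of the 11 alternatives, and in neither fit that left out a vehicle library. *TLE4*, a Groucho-type corepressor, had the lowest log2 fold change of the tested list genes, -0.48 (adjusted p = 0.007263 from edgeR), which missed the threshold without vehicle replicate 2 (adjusted p = 0.07863).

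Of 25 canonical target genes listed, 17 had a count and 13 were tested, of which *AXIN2* and *DKK1* rose, *TNFRSF19* fell and 10 did not pass, beside 24.0% of all tested genes that passed. *TNFRSF19* passed in 8 of the 11 alternatives and in neither fit without a vehicle library. The list median was 0.112. *CCND1*, which encodes the cell cycle protein cyclin D1, was at 1122 and 1121 CPM in vehicle against 1137 and 1157 CPM with Liq (log2 fold change 0.033, adjusted p = 0.726 from edgeR). *MYC*, a growth-promoting transcription factor gene, was at 292 and 285 CPM in vehicle against 345 and 306 CPM with Liq, a log2 fold change of 0.18 that did not pass (adjusted p = 0.06828 from edgeR). *NKD1*, another feedback gene, had 4 to 9 counts in each library, and *RNF43*, *NOTUM*, *NKD2* and *ASCL2* had 0 counts in all 4.

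Of the 9 lists, that of the β-catenin-independent branch had the most genes that rose. Of its 14 tested genes of 20, 9 rose and 0 fell at the adjusted threshold, against 12.6% and 11.3% of all tested genes. The list median was 0.442 against 0.006, and with loess offsets it was 0.337 against -0.001. The 9 include *WNT5B*, *ROR1* and *PTK7*, named above. Of the 9, *CELSR3*, *DAAM1*, *DAAM2* and *ROR1* were in the lowest bin of mean CPM, where 17.2% of all genes rose. *CELSR3*, a cadherin of the planar polarity core, went from 7.83 and 7.96 CPM in vehicle to 13.9 and 12.3 CPM in Liq, or 0.73 ± 0.11 on the log2 scale (SE, edgeR adjusted p = 3.529e-05). Its relative *CELSR2* rose by 0.47 on the same scale (adjusted p = 0.00117 from edgeR). *DAAM2*, a formin gene that links Dishevelled to actin, had 25 counts in each vehicle library and 41 and 60 in Liq, or 0.88 ± 0.28 on the log2 scale (SE, edgeR adjusted p = 0.02236). Its relative *DAAM1* (0.47), the calcium-dependent kinase gene *CAMK2D* (0.41) and *VANGL1* (0.25), a membrane protein of the polarity core, also rose. The number that rose was 3 without vehicle replicate 1 and 5 without vehicle replicate 2, and it was 6 with loess offsets or with DESeq2. Without vehicle replicate 1, *DAAM2* (adjusted p = 0.1956), *DAAM1* (0.08677), *CAMK2D* (0.1316), *VANGL1* (0.08215), *ROR1* (0.1399) and *PTK7* (0.1673) no longer passed (edgeR). Without vehicle replicate 2, *VANGL1* (0.4088), *ROR1* (0.2055) and *PTK7* (0.3412) did not pass, and *DAAM2* also missed the threshold there (0.1041), without Liq replicate 2 (0.07571), with loess offsets (0.08367) and by the DESeq2 Wald test (0.1941).

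**Figure D5:**
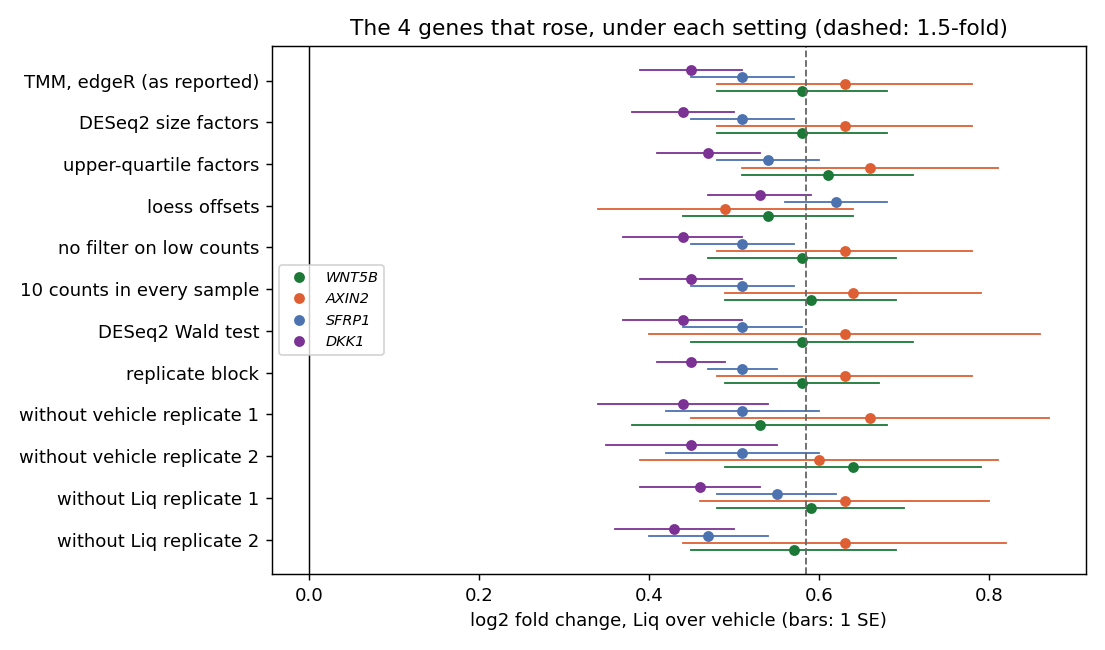
Log2 fold change of *WNT5B*, *AXIN2*, *SFRP1* and *DKK1* under the reported fit and each of 11 alternatives, with bars of 1 SE and a dashed line at 1.5-fold. All values lie between 0.43 and 0.66, and loess offsets lower *AXIN2* to 0.49 and raise *SFRP1* to 0.62.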

How the data were processed

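RNA from 4 ES2 samples (2 vehicle, 2 Liq, grouped by their titles) was sequenced by the authors from TruSeq libraries as single-end reads. Per the labels, reads were processed with bcl2fastq 2.17.1.14, aligned to hg19 (GRCh37) with TopHat2 2.0.8b and counted with HTSeq. The deposited values are raw counts per gene symbol, not normalized or filtered. Reads that align to several places (35.6% to 36.2%), fall outside genes (7.75% to 9.16%) or overlap several genes were left out, which lowers counts of genes with close copies.

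Genes were kept by filterByExpr (minimum count 10, minimum total 15), scaled by TMM and compared with glmQLFit and glmQLFTest in edgeR 4.0.16 (R 4.3.3), tested on simulated data first. Intervals of 95% and the SE come from the F statistic. With 2 against 2, an exact permutation test cannot go below p = 0.3333, so p-values rest on the spread shared across genes. Replicates differed by more than sampling noise (chi-square per degree of freedom 6.49 and 11.6, against 60.5 to 74.7 between groups), so each counted as 1 sample. Floors of 3 counts cover counting error only.

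The 10 genes, the role lists and the alternatives (other scalings, filters, DESeq2 1.42.0, replicate block, each sample left out) were chosen with earlier results of these data known. Named beside the 10 genes are list members past the thresholds, the 2 of highest CPM per list, *MYC*, *CCND1* and *CTNNB1*; other list genes past the adjusted p, and genes at or near 0, were named after their values were seen. *AMER1* was read under its older symbol. Some marker genes are not reported here. Gene positions and lengths are from GENCODE v44 mapped to GRCh37.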

Additional observations from a re-analysis of the deposited data

How the results depend on the processing

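*DKK1*, *AXIN2*, *WNT5B* and *SFRP1* passed the adjusted p with the same sign in all 11 alternative fits, and log2 fold changes ranged from 0.43 to 0.66. The number of the 10 genes past both thresholds, 1 as reported, was 2 with upper-quartile factors and with at least 10 counts in every sample, where *WNT5B* joined *AXIN2*, 4 with no fold threshold, 0 at a fold of at least 2, and 1 to 2 when 1 sample was left out. *TCF7* passed with loess offsets (-0.40). For *DKK3* and *LGR5*, neither of which passed anywhere, the sign turned. *DKK3* had 0.055 with loess offsets and -0.072 to 0.010 with 1 sample left out (0.010 without vehicle replicate 1). *LGR5* had 0.025 with upper-quartile factors, 0.00037 with at least 10 counts in every sample, and -0.076 to 0.074 with 1 sample left out.

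Over all genes, 874 changed by at least 1.5-fold at the adjusted p, 570 with the DESeq2 Wald test, 3245 with no fold threshold, and 659 to 979 with 1 sample left out. With loess offsets 357 rose and 386 fell, against 581 and 293 as reported. Among the role lists, upper-quartile factors gave 1 changed WNT ligand, 1 co-receptor or LGR gene and 4 planar polarity and calcium genes (0, 0 and 2 as reported), and 10 counts in every sample gave 1 WNT ligand. Loess offsets gave 1 antagonist, 1 nuclear factor, 0 genes of the β-catenin machinery, 0 canonical targets and 1 planar polarity and calcium gene (0, 0, 1, 1 and 2 as reported), and the DESeq2 Wald test 1 of the last list. With 1 sample left out, 0 to 1 WNT ligand, 0 to 1 co-receptor or LGR gene and 1 to 3 planar polarity and calcium genes changed. The causes of these shifts were not tested.

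Across the tested genes, the difference between replicates 1 and 2 in vehicle correlated with that in Liq by 0.0483. This correlation alone does not settle whether the replicate numbers of the labels pair the samples. With the replicate block 898 genes changed in all, 1 of the 10 genes passed both thresholds, and no call of the 9 tested genes changed. At the adjusted p with no fold threshold, the block gave 2321 genes that rose and 2474 that fell (1712 and 1533 as reported). Of the 67 other pathway genes 19 rose and 10 fell (12 and 10 as reported), with 4 nuclear factors (1 as reported), 4 canonical targets (2), 3 co-receptor or LGR genes (2) and 10 planar polarity and calcium genes (9) among those that rose in each list. At 0.0613 to 0.0868 CPM for 3 counts, depth limits what can be said of *WNT5A* and of the WNT genes without counts. Fits that left out a sample assume that the lone sample varies like the other group.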
